A study of Rattus norvegicus with 6 samples.

Results

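The glucocorticoid receptor and its signaling genes are described here in rat fibroblast-like synoviocytes (RA-FLS) that received tumor necrosis factor alpha (TNF-α) with or without emodin (EMO). The 6 genes were taken by symbol from the 34156 genes of the count table: the receptor Nr3c1, the ligand-producing enzyme Hsd11b1, the co-chaperones Fkbp5 and Fkbp4, and the receptor targets Tsc22d3 and Zbtb16, Fkbp5 being a target as well. All 6 had at least 10 reads in at least 3 libraries and were among the 13614 genes tested. With EMO the transcript of every one of these genes was lower, by 1.80-fold for Fkbp4 to 104-fold for Hsd11b1.

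The TNF-α group (n = 3) and the TNF-α+EMO group (n = 3) were wild-type fibroblast-like synoviocytes of rheumatoid arthritis, the fibroblasts of the joint lining, bought from a cell supplier and used at passage 4. Both groups received TNF-α, the inflammatory cytokine used to model the disease in culture, at 10 ng/mL, and the TNF-α+EMO group also received 80 μmol/L EMO, an anthraquinone of rhubarb. The labels name no added glucocorticoid, and no library without TNF-α was analysed here. The labels give day 5 and medium with 15% fetal bovine serum, whereas the methods of the study state a shorter incubation and less serum, so the duration of treatment is not settled by the sources. The study calls the 3 libraries of a group biological replicates, but no source says that they came from separate cultures, so the p-values measure the spread between these libraries, which may be technical.

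Glucocorticoids act through the receptor encoded by Nr3c1, which waits in the cytoplasm in a complex with Hsp90 and its co-chaperones, enters the nucleus after binding hormone, raises genes with glucocorticoid response elements and restrains NF-κB and AP-1 targets. The hormone available to a cell also depends on 11β-hydroxysteroid dehydrogenase type 1, encoded by Hsd11b1, which converts inert 11-keto steroids to cortisol or corticosterone and which inflammatory cytokines are known to raise in synovial fibroblasts. FKBP51 (Fkbp5) lowers the affinity of the receptor for hormone and is itself induced by the receptor, FKBP52 (Fkbp4) favors hormone binding and nuclear transport, GILZ (Tsc22d3) mediates part of the anti-inflammatory response, and PLZF (Zbtb16) is a zinc finger transcription factor that rises with glucocorticoids in many cell types.

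Libraries held 16813322 to 16982023 counted reads in the TNF-α group and 17185322 to 17794455 in the TNF-α+EMO group. Differences between the groups were wide across the transcriptome: 41.4% of the genes tested were called lower with EMO and 39.4% higher (edgeR, adjusted p under 0.05), and 27.8% and 19.5% also differed by more than 2-fold in those directions. EMO replicate 3 stood farthest from its group, with a chi-square per gene of 23.5 and 15.1 against the other EMO libraries, beside 6.27 between those and 4.62 to 5.73 among the TNF-α libraries, and without it all 6 members were still called lower, Nr3c1 at a log2 fold change of -0.75. Of the 16 synovial fibroblast markers, 15 were in the table and 12 were tested, of which 2 rose (Dcn, Cd55) and 10 fell, and their summed normalized count ranged from 283999 to 314861 without EMO and from 37578 to 40265 with it. Podoplanin (Pdpn) had at most 3 reads in every library, and Thy1, Prg4, Fap and Lum had at most 3 in each TNF-α+EMO library. In the TNF-α libraries Thy1 had 7, 6 and 3 reads and Prg4 had 4, 3 and 4, so both were near the floor without EMO as well. Fap had 27, 42 and 27 there, and Lum 235, 263 and 244. The summed counts of macrophage (8 markers), endothelial (5 of 6, Pecam1 not being in the table), epithelial (6) and chondrocyte (5) markers were also lower with EMO. In that order they were 747 to 818 against 1202 to 1307, 13.2 to 21.7 against 69.2 to 76.5, 1985 to 2333 against 9950 to 10807, and 9.21 to 10.3 against 470.5 to 562. Ptprc, Adgre1, Cd163, Kdr, Emcn, Epcam, Krt18 and Acan had 3 reads or fewer in every library. Those sums rested on few genes. Of the 3 macrophage markers tested, Cd68 (log2 fold change 0.75) and Itgam rose and Cd14 fell (-1.10). Of the 2 epithelial markers tested, Cldn4 rose and Krt8, nearly the whole sum, fell (-2.28). Itgam had 1, 0 and 0 reads in the TNF-α libraries and Cldn4 had 0 in each. Against a floor of 3 reads per library, their rises were at least 4.19-fold and 7.1-fold. The 1 endothelial and 1 chondrocyte marker tested fell (-3.55 and -6.85). Whether both groups were the same stock of cells, which bears on every difference with EMO below, and the part of these marker shifts in the results were not tested, and in bulk RNA fewer cells of a type and less RNA per cell cannot be told apart.

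To ask whether EMO changed expression of the receptor itself, the reads of Nr3c1 (ENSRNOG00000014096; Rnor_6.0 chromosome 18, 31728373 to 31749647, minus strand) were compared. The normalized read count, which is the count scaled to a common library size, was 2839.6, 3119.5 and 2907.9 with TNF-α alone, against 1796.7, 1666.9 and 1388.4 after EMO. All 3 EMO values lay below all 3 TNF-α values, and EMO replicate 3 was the lowest. The mean fell from 2956 ± 146 to 1617 ± 209 (SD, n = 3), a log2 fold change of -0.87 (SE 0.09, edgeR adjusted p = 4.9e-06). This is a 1.83-fold fall, short of the 2-fold threshold that the study used to call differentially expressed genes (DEGs).

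Hsd11b1 (ENSRNOG00000005861; chromosome 13, 111926442 to 111972603, minus strand) showed the widest difference of the 6 genes. Its normalized counts were 6821, 6750.0 and 5815.8 with TNF-α alone and 43.3, 87.0 and 55.0 with EMO. The EMO libraries rested on 42, 85 and 54 reads, with exact 95% Poisson intervals of 30.3 to 56.8, 67.9 to 105 and 40.6 to 70.5 reads that cover counting error only, so the second EMO library was above the first beyond counting error. The group mean fell from 6462 ± 561 to 61.8 ± 22.6 (SD, n = 3), a log2 fold change of -6.71 (SE 0.19, edgeR adjusted p = 4.0e-09). Of the 13614 genes tested, 343 (2.52%) had a lower log2 fold change. Per kilobase of gene length, 7.41% of genes tested had a higher mean level than Hsd11b1 in the TNF-α group and 84.5% in the TNF-α+EMO group.

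Tsc22d3 (ENSRNOG00000056135; chromosome X, 111884295 to 111887906, minus strand), which encodes GILZ, gave 645.4, 609.5 and 636.1 normalized counts with TNF-α and 184.6, 166.8 and 156.9 with EMO. The groups were far apart relative to the spread within them, with means of 630.3 ± 18.7 and 169 ± 14.1 (SD, n = 3). The fall was 3.72-fold (log2 fold change -1.89, SE 0.10, edgeR adjusted p = 1.1e-08).

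Fkbp5 (ENSRNOG00000022523; chromosome 20, 7976713 to 8019020, minus strand), a co-chaperone commonly read as a gauge of receptor activity, had 2076.5, 2103.4 and 2080.8 normalized counts without EMO and 715.8, 711.2 and 797.6 with it. The TNF-α libraries were nearly level, and the highest EMO value was still well under the lowest of them. The mean fell 2.81-fold, from 2087 ± 14.4 to 742 ± 48.6 (SD, n = 3), with a log2 fold change of -1.49 (SE 0.07, edgeR adjusted p = 4.6e-09).

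Zbtb16 (ENSRNOG00000029980; chromosome 8, 52985313 to 53146953, minus strand) was the least expressed of the 6 genes, with 29, 38 and 27 reads without EMO and 15, 1 and 6 with it. Relative to their mean, the EMO libraries scattered more widely than for any other member, from 1 read (95% Poisson interval 0.0253 to 5.57) to 15 reads (8.4 to 24.7), although none reached the TNF-α range. The normalized mean fell 4.02-fold, from 30.6 ± 5.69 to 7.54 ± 7.33 (SD, n = 3; log2 fold change -2.01, SE 0.57, edgeR adjusted p = 0.0076). The size of this fall rested on single libraries: the log2 fold change was -3.03 without EMO replicate 1 and -1.47 without EMO replicate 2, and on the log2(FPKM + 1) scale it was -0.53.

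Fkbp4 (ENSRNOG00000006444; chromosome 4, 161748993 to 161757447, minus strand) had 2771, 2627.1 and 2721.8 normalized counts with TNF-α and 1360.4, 1488.9 and 1649.1 with EMO. The groups did not overlap, and the 3 EMO libraries spread more than the 3 TNF-α libraries. The mean fell from 2707 ± 73.1 to 1499 ± 145 (SD, n = 3), or 1.80-fold (log2 fold change -0.85, SE 0.08, edgeR adjusted p = 1.2e-06).

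All 6 genes were therefore called lower, against 41.4% of the genes tested, and 4 of them (Hsd11b1, Zbtb16, Tsc22d3 and Fkbp5) were also DEGs, against 27.8% called lower by that rule. In all 6, each EMO library lay below each TNF-α library, a separation seen in 42.5% of the genes tested. The 6 genes were chosen with earlier results of these data known, so setting them beside all genes describes them and is not a test. The median log2 fold change of the 6 was -1.69, beside -0.01 over all genes tested, where the 25th and 75th percentiles were -1.21 and 0.80 and the 5th percentile was -4.81. On that scale Nr3c1 and Fkbp4 were unremarkable, since 30.4% and 30.7% of genes had a lower log2 fold change, and Fkbp5 (21.3%), Tsc22d3 (17.6%) and Zbtb16 (16.6%) were intermediate.

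**Figure D1:**
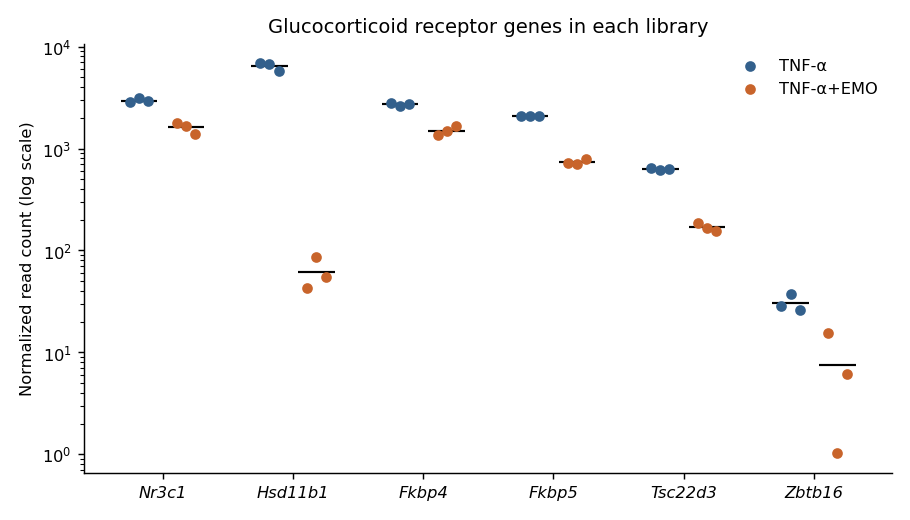
Normalized read count (log scale) of the 6 genes, 1 point per library, for the TNF-α group (n = 3) and the TNF-α+EMO group (n = 3). Every EMO point lies below every TNF-α point of the same gene, with the widest gap at Hsd11b1 and the widest scatter at Zbtb16, where the EMO libraries held 1 to 15 reads.

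**Figure D2:**
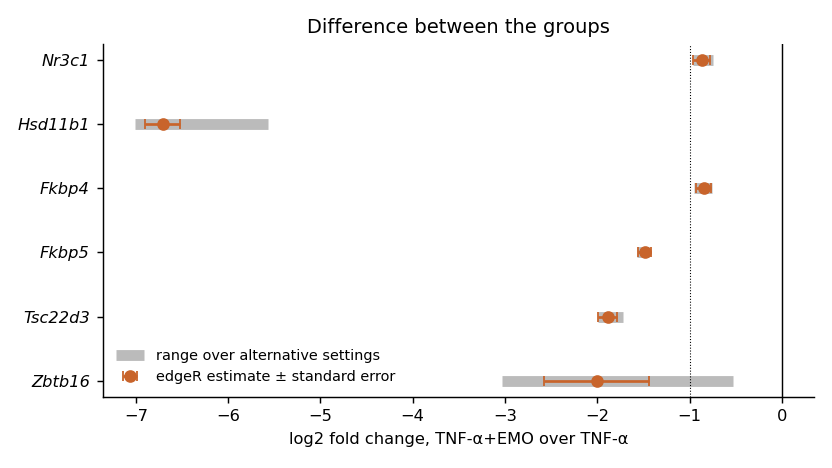
log2 fold change of TNF-α+EMO over TNF-α for the 6 genes (points, edgeR estimate ± standard error), with a solid line at 0 and a dotted line at -1, the 2-fold threshold. Nr3c1 (-0.87) and Fkbp4 (-0.85) lie above the dotted line, and Hsd11b1 (-6.71) is far to the left of the others.

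Levels of different genes were compared as normalized counts per kilobase of gene length. In the TNF-α group the order ran from Hsd11b1 (1440 ± 125) and Fkbp4 (951 ± 25.7) through Fkbp5 (616 ± 4.27) and Nr3c1 (582 ± 28.7) to Tsc22d3 (325 ± 9.63) and Zbtb16 (11.7 ± 2.17; SD, n = 3). The ranges of Fkbp5 and Nr3c1 overlapped, from 613 to 621 and from 559 to 614, so their order did not hold beyond the spread, whereas the other neighbors in the order did not overlap. With EMO the order was Fkbp4 (527 ± 50.8), Nr3c1 (318 ± 41.1), Fkbp5 (219 ± 14.4), Tsc22d3 (87.5 ± 7.26), Hsd11b1 (13.7 ± 5.02) and Zbtb16 (2.87 ± 2.79; SD, n = 3), with no overlap between neighbors. Hsd11b1 thus moved from the highest level per length of the 6 genes to the next to lowest, and the receptor, at the level of Fkbp5 with TNF-α alone, was above it with EMO. Of the summed level per length of the 6 genes, Hsd11b1 made up 34.2% to 37.8% without EMO and 0.834% to 1.66% with it, while Fkbp4 went from 23.2% to 25.3% up to 41.4% to 49.0%.

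**Figure D3:**
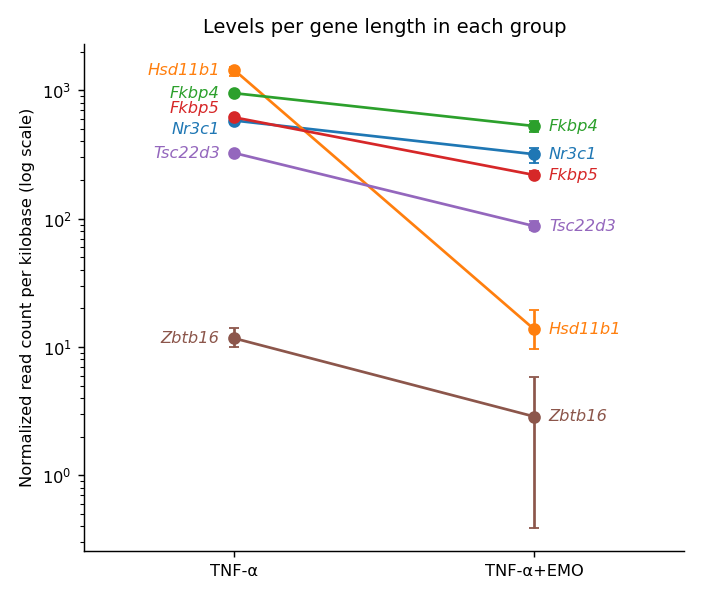
Normalized read count per kilobase (log scale) of each gene in the TNF-α and TNF-α+EMO groups, with the mean of 3 libraries as a point and the lowest and highest library as bars. Hsd11b1 crosses from the highest level (mean 1440) to below Tsc22d3 (mean 13.7), and the lines of Fkbp5 and Nr3c1 part.

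FKBP51 and FKBP52 compete for the same place on Hsp90 in the receptor complex, so the ratio of their transcripts was taken within each library, where no scaling between libraries enters. The Fkbp5 to Fkbp4 ratio per gene length was 0.629, 0.673 and 0.642 without EMO, against 0.442, 0.401 and 0.406 with it. Fkbp4 was the more abundant of the pair in all 6 libraries, and its lead was wider in each EMO library than in any TNF-α library. On the log2 scale the mean ratio went from -0.63 ± 0.05 to -1.27 ± 0.08 (SD, n = 3), a 1.56-fold lower ratio, and an exact two-sided permutation test gave p = 0.1, the smallest value that 3 against 3 libraries can give.

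Other proteins that can hold this place include cyclophilin 40 (Ppid) and protein phosphatase 5 (Ppp5c). These 4 transcripts were compared after their values had been seen, and the shares depend on that choice. Stip1 and Stub1, also listed co-chaperones of the complex, were left out. Their mean levels per kilobase were 2610 and 827 without EMO and 2090 and 1670 with it. Of the summed level per length of Fkbp4, Fkbp5, Ppid and Ppp5c, Ppid made up 21.3%, 21.7% and 22.6% without EMO, against 51.9%, 49.0% and 48.0% with it. Fkbp4 went from 33.3% ± 0.461 to 16.6% ± 1.35, Fkbp5 from 21.6% ± 0.506 to 6.88% ± 0.305, and Ppp5c from 23.2% ± 0.321 to 26.9% ± 0.623 (SD, n = 3). Among these 4, Fkbp4 held the largest share with TNF-α alone and Ppid with EMO, in 3 of 3 libraries each time. Exact permutation tests of these 4 shares each gave p = 0.1, the smallest possible at n = 3. The shares are parts of the same sum, so they do not vary independently. Because the genes were chosen with their values seen, these tests decide nothing.

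**Figure D4:**
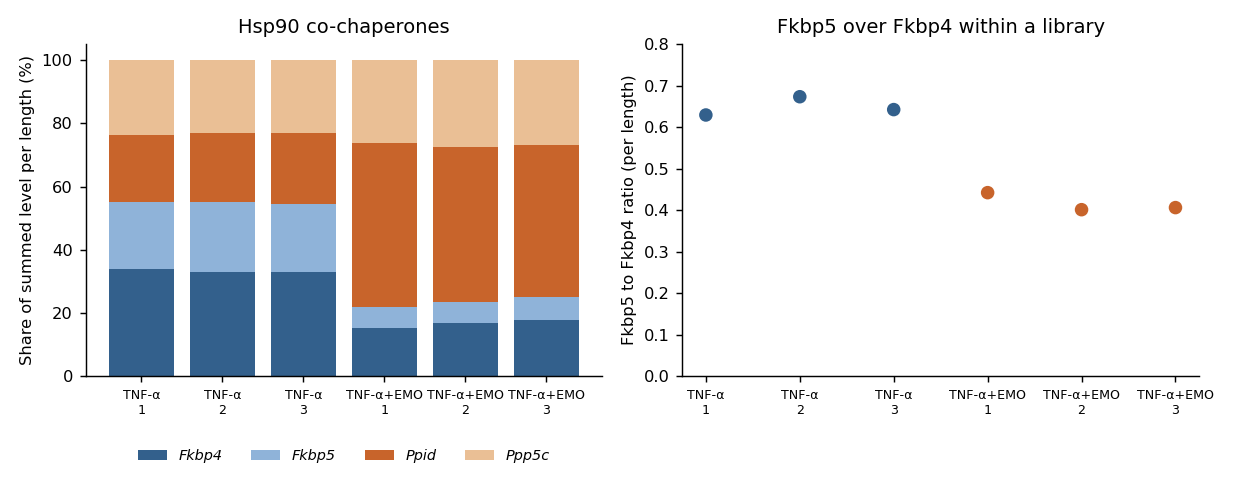
Left, share (%) of Fkbp4, Fkbp5, Ppid and Ppp5c in their summed level per gene length in each of the 6 libraries, stacked; right, the Fkbp5 to Fkbp4 ratio per gene length in each library. The Ppid share rises from 21.3% to 22.6% with TNF-α to 48.0% to 51.9% with EMO, and the ratio falls from 0.629 to 0.673 down to 0.401 to 0.442.

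The remaining parts of the receptor heterocomplex moved mostly the other way from the 6 genes. Of 11 listed chaperones and co-chaperones, all tested, 8 rose and 1 fell, with 3 DEGs higher and none lower, beside 39.4% and 41.4% of all genes tested called higher and lower and 19.5% and 27.8% as DEGs, and their median log2 fold change was 0.67. Ppid rose 2.53-fold (695 ± 27.9 to 1756 ± 62.5 normalized counts; log2 fold change 1.34, SE 0.07, edgeR adjusted p = 1.1e-08). The p23 gene Ptges3, which stabilizes the hormone-binding state (1.12, adjusted p = 9.4e-09), and the ubiquitin ligase Stub1 (1.01, adjusted p = 5.4e-05) were the other DEGs of the list. Stub1 lay close to the 2-fold threshold. With 1 library at a time left out, the list held 2 to 3 DEGs higher and 7 to 8 genes called higher. The Hsc70 gene Hspa8 rose from 17061 ± 651 to 27809 ± 1700 (0.70, adjusted p = 9.5e-07) and St13, which encodes the Hsc70-interacting protein, from 4786 ± 148 to 8761 ± 368 (0.87, adjusted p = 1.1e-07). Stip1, which links Hsp70 to Hsp90, fell (-0.32, adjusted p = 3.1e-04), and the Hsp40 gene Dnaja1 did not pass the test (-0.07, adjusted p = 0.28).

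The constitutive Hsp90 gene, Hsp90ab1, had the highest level of the list, at 47591 ± 205 normalized counts with TNF-α and 53407 ± 1540 with EMO (log2 fold change 0.17, SE 0.05, edgeR adjusted p = 0.008), and that call was lost when any 1 TNF-α library was left out (adjusted p 0.15 to 0.21). Hsp90aa1, the inducible form, was singled out after its values had been seen, because its TNF-α libraries held 710, 1532 and 2931 reads while the EMO libraries held 955, 889 and 849. Its groups overlapped and the difference did not pass the test (-0.87, adjusted p = 0.22), and the size of the difference rested on single libraries, at -0.33 without TNF-α replicate 3 (adjusted p = 0.4) and -1.31 without TNF-α replicate 1 (adjusted p = 0.01). The latter raised the counts of the list called lower from 1 to 2 and of DEGs lower from 0 to 1.

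Genes that handle the ligand fell together with Hsd11b1. H6pd encodes the enzyme that supplies NADPH to 11β-hydroxysteroid dehydrogenase type 1 in the endoplasmic reticulum. It had 1679, 1678 and 1665 reads with TNF-α and 438, 446 and 442 with EMO, and the libraries of each group were almost level. Its normalized count fell 3.61-fold, from 1635 ± 12.5 to 453 ± 3.20 (SD, n = 3; log2 fold change -1.85, SE 0.07, edgeR adjusted p = 7.2e-10). The steroid 5α-reductase gene Srd5a1 fell from 167 ± 15.5 to 59.1 ± 3.56 (-1.50, adjusted p = 8.7e-06) and the mineralocorticoid receptor gene Nr3c2, whose product also binds corticosterone, from 95.1 ± 3.74 to 50.2 ± 10.2 (-0.92, adjusted p = 0.0024). These were 3 of the 6 genes listed, and all 3 tested were called lower, beside 41.4% of all genes tested. Hsd11b2, which inactivates the hormone, had 0 to 2 reads per library, and Abcb1a and Abcb1b were not analysed here.

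Coregulators of the receptor also fell. Of 12 listed, 11 were called lower and none higher, beside 41.4% and 39.4% of all genes tested. Of the 12, 5 were DEGs lower, beside 27.8%, and the median log2 fold change was -0.67. The chromatin remodeler Smarca4 fell from 4358 ± 167 to 2133 ± 110 normalized counts (log2 fold change -1.03, SE 0.06, edgeR adjusted p = 4.9e-08), the arginine methyltransferase Carm1 from 1954 ± 31.3 to 1288 ± 37.9 (-0.60, adjusted p = 3.0e-06) and the deacetylase Hdac2 from 1674 ± 88.3 to 1192 ± 40.0 (-0.49, adjusted p = 4.2e-05). The mediator subunit Med1 was the one gene of the list that did not pass the test (-0.15, adjusted p = 0.054). Without EMO replicate 3, 3 of the 12 were DEGs rather than 5, since Smarca4 (-0.97) and Crebbp (-0.85) came under the 2-fold threshold.

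Among 31 other genes known to be induced by glucocorticoids, 25 were tested, of which 6 rose and 17 fell, beside 39.4% and 41.4% of all genes tested, and 3 and 9 of them were DEGs, beside 19.5% and 27.8%. The median log2 fold change was -0.65. The list did not move as one. Klf15, a transcription factor of metabolic glucocorticoid responses, rose 5.74-fold from 325 ± 30.9 to 1868 ± 119 normalized counts (log2 fold change 2.52, SE 0.09, edgeR adjusted p = 6.9e-10), and the MAP kinase phosphatase Dusp1 rose from 734 ± 71.8 to 2609 ± 182 (1.83, adjusted p = 5.3e-09). The metallothioneins Mt2A, at 12466 ± 656 and 20211 ± 2250 (0.70, adjusted p = 1.3e-05), and Mt1 (1.55, adjusted p = 2.1e-05) rose as well, with the reservation that metallothionein copies are near-identical and may share reads. Klf9 (0.95) and Ddit4 (0.71) completed the 6 that rose.

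The induced targets that fell included Anxa1, whose product annexin A1 restrains leukocyte recruitment, from 5152 ± 149 to 1812 ± 169 (log2 fold change -1.51, SE 0.07, edgeR adjusted p = 8.6e-09). The NF-κB inhibitor Nfkbia fell from 4859 ± 51.1 to 3735 ± 139 (-0.38, adjusted p = 7.7e-05) and the transglutaminase Tgm2 from 314 ± 18.7 to 4.78 ± 2.11 (-6.00, adjusted p = 1.6e-09). The water channel Aqp1 had 311, 264 and 286 reads with TNF-α and 1, 1 and 0 with EMO, at least 91.2-fold lower when the EMO libraries are set at a floor of 3 reads each. Sgk1 (-1.71), Glul (-3.49) and Pik3r1 (-3.56) were further DEGs that fell, while Lcn2 (0.07, adjusted p = 0.4) and Angptl4 (-0.65, adjusted p = 0.07) did not pass the test.

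Of 18 inflammatory genes that the receptor is known to repress, 14 were tested, of which 4 rose and 10 fell, 3 and 9 of them DEGs, beside the same shares of all genes. The median log2 fold change was -3.74, or -3.15 with the 3 genes at the floor in EMO set to their bounds. The monocyte chemokine Ccl2 fell from 29588 ± 450 to 1410 ± 62.6 normalized counts (log2 fold change -4.39, SE 0.06, edgeR adjusted p = 1.6e-12) and Ccl7 from 11177 ± 180 to 49.9 ± 9.51 (-7.80, adjusted p = 1.5e-12). The secreted phospholipase Pla2g2a had 2162, 2261 and 1975 reads with TNF-α and 0 in each EMO library, at least 678-fold lower against the floor of 3 reads per library. The matrix metalloproteinase Mmp13 rose from 187 ± 15.6 to 798 ± 99.2 (2.09, adjusted p = 1.9e-08), as did Lif (1.89) and Il6 (1.23). The fourth that rose, Icam1, named after its values were seen, did so by 0.13 (adjusted p = 0.046), and it lost its call under 10 of 12 alternatives (adjusted p 0.064 to 0.69), which left 3 that rose. Mmp3 fell from 18354 ± 1190 to 13179 ± 2430 (-0.48, adjusted p = 0.0065), a call lost without EMO replicate 3 (adjusted p = 0.13). Both the targets that the receptor raises and those it represses thus held more genes that fell than genes that rose.

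**Figure D5:**
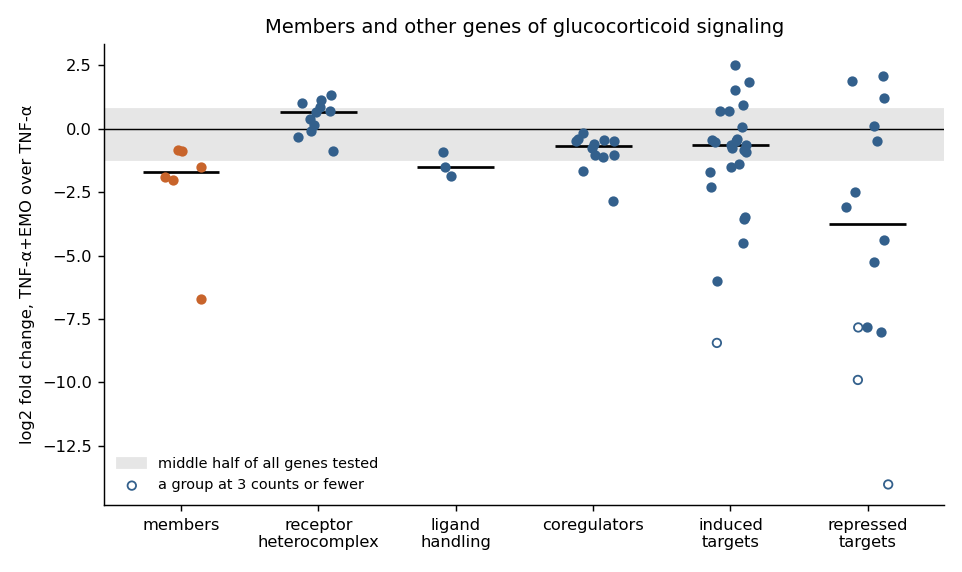
log2 fold change of TNF-α+EMO over TNF-α for every tested gene (1 point per gene) of the 6 members and the 5 lists, with a line at 0. The medians are -1.69 for the members, 0.67 for the receptor heterocomplex, -1.50 for ligand handling, -0.67 for coregulators, -0.65 for induced targets and -3.74 for repressed targets.

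The promoter windows of 3 members are shown because the genes differ in how they fell and in what lies before their start: Fkbp4, Fkbp5 and the most downstream of the 3 Tsc22d3 starts. RefSeq held start sites for 4 of the 6 genes (7 windows), and Hsd11b1 and Zbtb16 had no entry. Each sequence is the 250 bases before the start in RefSeq on GRCr8, 5′ to 3′ on the minus strand, at chr4:163397919-163398168 for Fkbp4, chr20:6543556-6543805 for Fkbp5 and chrX:109010035-109010284 for Tsc22d3, with a match to the heat shock element letters GAANNTTC in capitals.
Fkbp4: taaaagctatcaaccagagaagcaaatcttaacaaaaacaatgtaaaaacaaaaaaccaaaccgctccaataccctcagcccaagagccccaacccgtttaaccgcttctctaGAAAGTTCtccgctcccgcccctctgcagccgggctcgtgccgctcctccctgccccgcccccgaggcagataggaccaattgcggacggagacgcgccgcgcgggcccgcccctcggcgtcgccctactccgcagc
Fkbp5: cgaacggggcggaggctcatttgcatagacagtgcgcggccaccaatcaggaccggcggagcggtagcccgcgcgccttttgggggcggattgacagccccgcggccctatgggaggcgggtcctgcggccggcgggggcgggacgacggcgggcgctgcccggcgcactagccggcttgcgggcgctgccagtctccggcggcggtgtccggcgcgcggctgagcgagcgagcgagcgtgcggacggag
Tsc22d3: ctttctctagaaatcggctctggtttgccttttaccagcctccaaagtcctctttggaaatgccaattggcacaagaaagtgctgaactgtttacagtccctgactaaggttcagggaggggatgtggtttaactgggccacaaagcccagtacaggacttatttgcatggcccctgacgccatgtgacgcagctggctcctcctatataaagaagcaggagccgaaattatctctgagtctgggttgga
The glucocorticoid response element letters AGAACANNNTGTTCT, which read the same on both strands, occurred in none of the 7 member windows and in 4 of the 33469 windows of all genes (0.012%). The single arm AGAACA, searched as TGTTCT on the other strand and contained in the full element, also had 0 matches in the 7 windows, against 17.5% of all windows. The heat shock element letters, likewise the same on both strands, were present in Fkbp4 alone, starting 137 bases before the start, and in 7.23% of all windows. GC content was 59.6% for Fkbp4, 76.0% for Fkbp5 and 49.2% for Tsc22d3, beside a median of 51.2% over all windows. The best known response elements of Fkbp5 lie in introns and those of Tsc22d3 farther upstream, outside these windows.

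The deposited gene models limit which transcripts the counts can see. The Tsc22d3 model spans 3612 bases on Rnor_6.0, whereas the 3 starts that RefSeq lists for this gene on GRCr8 lie up to 56355 bases apart, so the model cannot hold all of them and a switch between its forms was not tested. The 2 starts of Nr3c1 lie 780 bases apart, and its model spans 21275 bases. Fkbp4 and Fkbp5 have 1 listed start each.

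No listed gene overlapped any of the 6 in the deposited coordinates. Of the 12 nearest tested genes on either side, looked up after the values were seen, 5 rose, 5 fell and 2 did not pass the test, near the 39.4% and 41.4% of all genes tested. As examples, Nnmt beside Zbtb16 rose (log2 fold change 2.33) and Lamb3 beside Hsd11b1 fell (-3.61), while Ndfip1 beside Nr3c1 (0.73) and Tead3 and Pim1 on either side of Fkbp5 (0.49 and 1.28) rose.

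The genes whose pattern was most like that of each member were found by the Euclidean distance between centered log2(normalized count + 1) profiles over the 6 libraries. The search covered 9433 genes, each with a mean normalized count of at least 100. Nearest to Nr3c1 were Kpna3 (distance 0.0891, log2 fold change -0.93) and Cntrob (0.095, -0.89), and nearest to Hsd11b1 were Cxcl13 (0.392, -6.76) and Cyp1b1 (0.477, -7.03). Enah (0.0438, -1.89) and Tacc1 (0.0655, -1.87) lay nearest to Tsc22d3, Kat2a (0.0609, -1.48) and Purb (0.0862, -1.47) to Fkbp5, and Pygo2 (0.0726, -0.80) and Mcph1 (0.104, -0.87) to Fkbp4. Between 3 genes for Tsc22d3 and 52 for Nr3c1 lay within 2 times the smallest distance. For Zbtb16 the nearest genes, Wdr76 (1.58) and AC131360.2 (1.63), were no closer than many others, with 2879 genes within 2 times the smallest distance. Zbtb16 itself, with means of 30.6 without EMO and 7.54 with it, was below that minimum count. No gene searched was as low in mean count, and its few reads add counting error to these distances.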

How the data were processed

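RNA from 6 rat RA-FLS samples was sequenced from poly(A)-selected paired-end libraries on an Illumina HiSeq. The authors deposited raw read counts per gene and FPKM values (fragments per kilobase of gene, scaled to library depth). The submitters' processing notes name FastQC, Trimmomatic, HISAT2 and Rnor_6.0, while the counting program, annotation release and strand setting are not given in the sources used here, so reads of a gene and its antisense partner may be mixed. The deposited columns of group means, log2 fold change, p-value and adjusted p were not used. Samples were grouped by their treatment labels.

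Genes reaching 10 counts in 3 or more libraries were fitted with edgeR 4.0.16 (TMM, robust quasi-likelihood F test, R 4.3.3), with Benjamini-Hochberg adjustment over all 13614 of them. A call is an adjusted p under 0.05, and a DEG also has an absolute log2 fold change over 1. The fit was tested on simulated data in which far fewer genes changed than were called here. That test cannot show how the fit behaves under differences this wide. A count of 3 per library was taken as the floor. The alternatives were DESeq2 1.42.0, limma 3.58.1 on log2(FPKM + 1), other filters, leaving out each library, and a replicate block. Ratios were tested with exact permutation tests (scipy 1.17.1). Promoter sequences came from RefSeq (GRCr8).

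Genes were named by rule: the 6 members, from each list the 3 (4 for induced targets) with the highest count per kilobase and the DEGs with the largest rise and fall (2 each for induced targets) at a mean count of at least 100, and the 2 genes most like each member. Other genes were named after their values were seen, and most are not marked as such where they appear. Among the lists these included Ptges3, Stub1, Stip1, Dnaja1, Ppp5c, Hsp90aa1, Med1, Crebbp, Klf9, Ddit4, Sgk1, Glul, Pik3r1, Lcn2, Angptl4, Lif, Il6 and Icam1. A gene that the rule names is not reported here. The members and lists were chosen with earlier results of these data known. Libraries of a group were not copies of each other. Same-numbered libraries did not deviate together (correlations 0.0199, -0.00382 and 0.0622), so the numbers were not taken as pairs.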

Additional observations from a re-analysis of the deposited data

How the results depend on the processing

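Each of the 6 members was called lower under every alternative that tested it (12 alternatives, and 11 for Zbtb16, which a filter of 50 counts removed), and none reversed. The log2 fold change ranged from -0.97 to -0.75 for Nr3c1, -7.01 to -5.57 for Hsd11b1, -1.99 to -1.72 for Tsc22d3, -1.57 to -1.44 for Fkbp5, -3.03 to -0.53 for Zbtb16 and -0.95 to -0.76 for Fkbp4. With the replicate block 6 members were called lower and Zbtb16 was at -2.14 (edgeR adjusted p = 0.01), and of the members and lists the block moved only the repressed targets called higher, from 4 to 3. Over all genes it gave 5266 called higher and 5540 lower. Leaving out 1 library at a time gave 1 to 2 heterocomplex genes called lower, 0 to 1 of them DEGs, and 3 to 5 coregulator DEGs lower. Heterocomplex genes called higher then numbered 7 to 8, with 2 to 3 DEGs higher. Induced targets called lower then numbered 12 to 17, with 6 to 9 DEGs lower. Repressed targets called lower numbered 7 to 10, with 6 to 9 DEGs lower. Of the summaries, 341 were classed as the same and 3 as moved. The first class included the drops in induced and repressed targets called lower. Of the single-gene values, 346 were unchanged in call and 4 were weaker, 3 for Hsp90ab1 and 1 for Mmp3. The median log2 fold change of all genes was -0.14 with DESeq2 and -0.13 with no filter. Depth limited Zbtb16 most, at 1 to 15 reads per EMO library.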
